A study of Mus musculus with 7 samples.

Results

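Interferon-stimulated genes, the genes that cells switch on when an interferon binds its receptor, were followed across 7 Affymetrix mouse arrays of OT-I CD8 T cells. The members were 44 listed genes, and each was read from 1 probe set, the one with a single gene symbol and the highest mean over the 7 arrays. Of the 44, 42 had such a probe set among the 18194 genes named in the series, and 38 passed the filter of a log2 level of at least 5 on at least 2 arrays, which left 8203 genes in the tests. Isg15, which encodes a ubiquitin-like protein, was read only on a probe set with several gene symbols and has no value here, and Ifi44 was not analysed here. Stat2, Oasl1, Mx2 and Ifitm3 were measured but stayed below 5 on every array, and so were not tested.

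Type I interferons bind a receptor made of Ifnar1 and Ifnar2, and the kinases Jak1 and Tyk2 then pass the signal on. It reaches the nucleus through a complex that holds Stat2 and Irf9 and binds the interferon-stimulated response element (ISRE) in the promoters of antiviral genes. Interferon gamma acts through the gamma-activated site (GAS) and drives the immunity-related GTPases, the guanylate-binding proteins and the genes of antigen presentation. In T cells many of these genes also have a basal level that depends on tonic signals, and activation through the T cell receptor changes the response to interferon.

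OT-I cells carry a transgenic receptor for a peptide of chicken ovalbumin (OVA). CD44lo OT-I cells of the C57BL/6 strain with the Ly5.1 marker were stained with CFSE, a dye diluted at each division, and injected into hosts of 4 kinds. RIP-OVAhi cells (2 arrays, 20 pooled mice each) came from sacral and pancreatic lymph nodes of hosts that make OVA under the rat insulin promoter, a model of deletional tolerance, after 60 h. OCS/LPS cells (2 arrays, 10 mice each) came from the spleen of hosts primed with OVA-coated splenocytes and lipopolysaccharide, after 60 h. Rag cells (1 array, 10 mice) came from the spleen of Rag-/- hosts, in which no T or B cells develop, after 5 days. Naive cells (2 arrays, 10 mice each) were undivided cells from the spleen of B6 hosts without antigen, after 60 h. Cells of the first 3 groups had divided at least 2 times, and all were sorted as CD8+ Ly5.1+ cells by their CFSE level. RIP-OVAhi therefore differs from the other groups in tissue, Rag in time and naive in division, and these cannot be told apart from the host in any comparison.

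All 9 measured markers of OT-I CD8 T cells, Cd8a and Cd3e among them, were at 5 or above on every array. Array medians lay between 2.97 and 3.08, and between 33.7 and 34.5 percent of probe sets were at 5 or above. The 2 arrays of a group correlated at r = 0.991 for RIP-OVAhi, 0.991 for OCS/LPS and 0.975 for naive cells across the 8203 genes. Between the 2 arrays of a group 28 genes differed more than 2-fold in RIP-OVAhi and 31 in OCS/LPS, no member among them, and 347 in naive cells, 4 of them members (Zbp1, Mx1, Rsad2 and Adar). The Y-linked gene Kdm5d read 8.63 to 8.82 on the first array of all 4 groups and 2.57 to 2.64 on the second array of the 3 replicated groups, and Xist was high (12.73 to 13.01) on those second arrays only. Replicate number thus moved with the sex of the donor cells. The Rag group has only a first array, so its comparisons also differ in sex, which cannot be told apart from the host. RNA quality was read from Gapdh, as its 3′ control level minus its 5′ one, which was 2.08 and 2.03 on the RIP-OVAhi arrays, 1.85 and 1.89 on the OCS/LPS arrays, 2.21 on the Rag array and 2.59 and 2.43 on the naive arrays (log2). It was lowest in OCS/LPS and highest in naive cells, and its part in the member levels was not tested. In such bulk samples fewer expressing cells and less RNA per cell cannot be told apart.

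Promoter sequence is shown for the 6 called members with a RefSeq window (GRCm38.p6) that lay furthest below naive cells in OCS/LPS, as the 150 bases just upstream of the start site, 5′ to 3′ along the gene's strand. Capitals mark matches to the ISRE core GAAANNGAAA on either strand or to the GAS motif TTCNNNGAA, which reads the same on both strands. The stretches lie at chr5:114896784-114896933 (plus strand, Oasl2), chr19:34640739-34640888 (plus, Ifit1), chr12:26456453-26456602 (minus, Rsad2), chr19:34583379-34583528 (plus, Ifit3), chr3:142620513-142620662 (plus, Gbp2) and chr8:71537473-71537622 (minus, Bst2).
Oasl2: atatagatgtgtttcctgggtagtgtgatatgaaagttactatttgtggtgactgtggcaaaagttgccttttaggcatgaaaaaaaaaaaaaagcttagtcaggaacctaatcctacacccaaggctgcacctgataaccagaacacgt
Ifit1: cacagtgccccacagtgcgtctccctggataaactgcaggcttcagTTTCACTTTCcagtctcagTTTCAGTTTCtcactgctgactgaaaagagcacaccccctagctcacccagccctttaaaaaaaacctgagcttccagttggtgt
Rsad2: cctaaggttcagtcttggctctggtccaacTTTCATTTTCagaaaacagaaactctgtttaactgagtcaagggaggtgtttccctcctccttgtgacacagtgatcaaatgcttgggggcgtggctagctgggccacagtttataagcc
Ifit3: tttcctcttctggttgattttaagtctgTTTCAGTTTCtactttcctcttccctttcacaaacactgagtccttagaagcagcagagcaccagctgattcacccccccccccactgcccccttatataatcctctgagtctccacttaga
Gbp2: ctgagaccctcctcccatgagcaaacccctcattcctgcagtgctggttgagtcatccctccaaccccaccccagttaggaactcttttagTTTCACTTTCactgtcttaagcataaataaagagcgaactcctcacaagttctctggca
Bst2: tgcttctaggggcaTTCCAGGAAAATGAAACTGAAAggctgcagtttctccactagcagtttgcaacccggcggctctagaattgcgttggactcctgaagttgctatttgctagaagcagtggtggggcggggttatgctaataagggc

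Ifit1 held 2 ISRE cores, starting at positions -104 and -85 from the start site, and Rsad2, Ifit3 and Gbp2 held 1 each in the stretch shown. Ifit3 had another at position -156, outside the stretch. In Bst2 a GAS at -136 ran into a pair of ISRE cores at -130 and -124 that overlap each other. The Oasl2 stretch held neither motif. Over the full windows of 300 bases (250 before the start site and 50 after it), 35 members had a RefSeq window, and 17 of them (48.6%) held an ISRE core, against 3.99% of 27025 genes with a window. GAS matches were found in 11 of the 35 (31.4%), against 9.55% of all genes. An ISRE core stood in 11 of the 18 members with a window that were called in at least 1 comparison (61.1%), and in 3 of the 12 that were tested and called in none (25%). These matches describe the letters only.

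**Figure D1:**
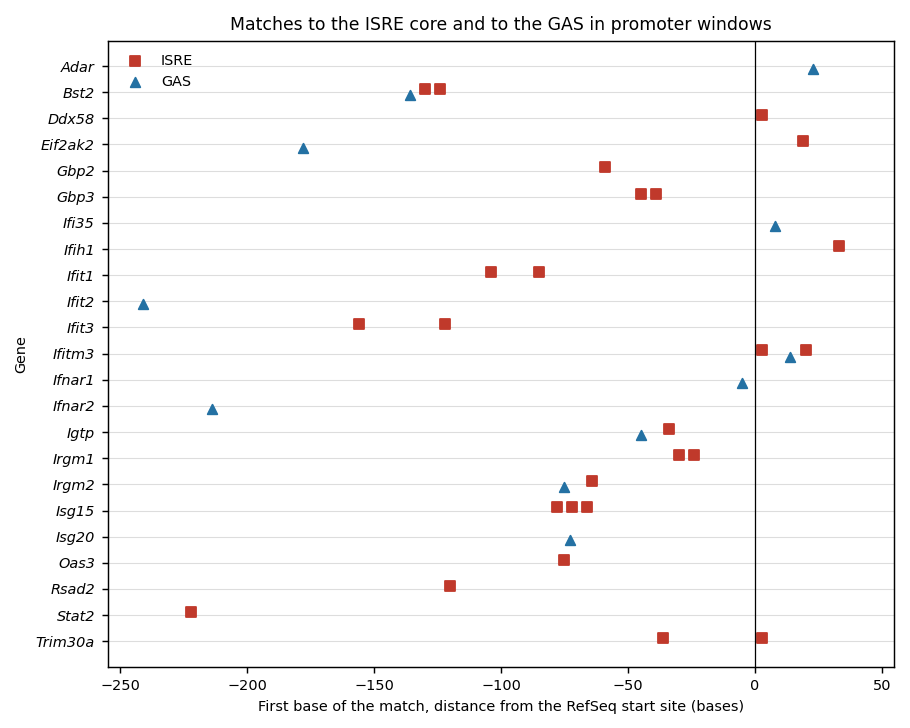
Positions of matches to the ISRE core and to the GAS in the promoter windows of the members that hold one, as bases from the RefSeq start site (x axis), with a row per gene. ISRE cores of Ifit1, Ifit3, Rsad2, Gbp2 and Bst2 lie between positions -156 and -59.

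Ifit1, Rsad2 and Ifit3 led a set of antiviral members with the least RNA in OCS/LPS cells. Oasl2 had the largest fitted fall, but it lay below 5 on both OCS/LPS arrays and passed the filter only through other groups. A gene was called when its adjusted p in a moderated test (limma, two-sided, Benjamini-Hochberg over all 8203 genes) was under 0.05. In RIP-OVAhi against naive cells 9 of the 38 tested members fell and 2 rose; over all tested genes 11.6% fell and 18.1% rose. In OCS/LPS against naive cells 17 members fell and 2 rose, where 12.3% of all genes fell and 20.5% rose. In Rag against naive cells 1 member rose and none fell, where 2.15% of all genes rose and 0.585% fell; 5 members were higher and 2 lower at an unadjusted p under 0.05. The median difference over the 38 members was -0.23 for RIP-OVAhi, -0.55 for OCS/LPS and 0.09 for Rag against naive (log2), where the medians over all genes were 0.06, 0.08 and 0.04. These 3 comparisons share the naive arrays. Of the 17 falls in OCS/LPS, those of Irgm2, Igtp, Isg20, Ifi35, Ifi47 and Trim30a lie outside the 10 largest and are named after their values were seen. Single arrays moved these counts. In RIP-OVAhi against naive the count of 11 called members was 3 and 4 without the first and second RIP-OVAhi array, 6 without either OCS/LPS array and 17 without the second naive array. In OCS/LPS against naive the count of 19 was 9 without the second OCS/LPS array. In Rag against naive the count of 1 was 11 without the first naive array and 0 without each other array (6 to 8 at an unadjusted p under 0.05, limma).

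Between the divided groups, 5 members were higher in RIP-OVAhi than in OCS/LPS and none lower by this test (15 and 0 at an unadjusted p under 0.05), with 1.61% of all genes higher and 1.3% lower. The median member difference there was 0.33, against -0.05 over all genes. In RIP-OVAhi against Rag 6 members fell and none rose, where 6.9% of all genes fell and 9.84% rose (13 lower and 1 higher at an unadjusted p under 0.05). In OCS/LPS against Rag 15 fell and none rose, where 6.9% of all genes fell and 11.2% rose (21 lower and 0 higher unadjusted). The medians were -0.33 and -0.66, against 0.02 and 0.06 over all genes. The count of 5 in RIP-OVAhi against OCS/LPS was 1 without either RIP-OVAhi array or the first OCS/LPS array, 0 without the second OCS/LPS array (8 at an unadjusted p under 0.05, limma) and 8 without either naive array. The count of 6 in RIP-OVAhi against Rag was 1 and 2 without the first and second RIP-OVAhi array, 3 without either OCS/LPS array and 11 without either naive array. The count of 15 in OCS/LPS against Rag was 9 without either RIP-OVAhi array and 6 and 5 without the first and second OCS/LPS array. The OCS/LPS mean was the lowest of the 4 group means for 29 of the 38 members (76.3%), against 20.4% of all tested genes. The Rag value, from 1 array, was the highest for 21 members (55.3%), against 23.2% of all genes. These orders carry no test. In all, 21 members were called in at least 1 comparison and 17 in none (44.7%, against 56.9% of all genes).

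**Figure D2:**
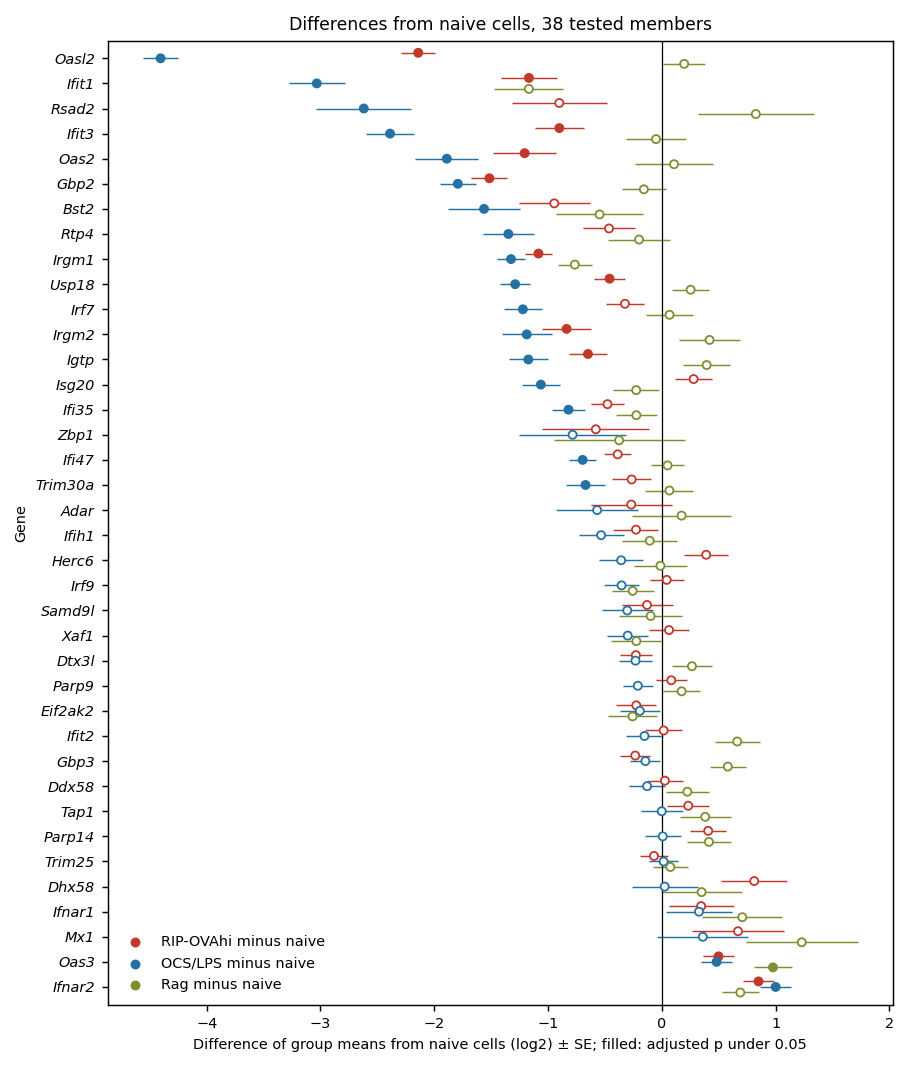
Difference of group means from naive cells in log2 units (x axis) for the 38 tested members (rows), with bars of 1 standard error and filled points for an adjusted p under 0.05. Most OCS/LPS points lie left of 0, down to -4.41 for Oasl2, while the Rag points lie on both sides and only Oas3 is filled. Oasl2 lay below 5 on both OCS/LPS arrays.

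**Figure D3:**
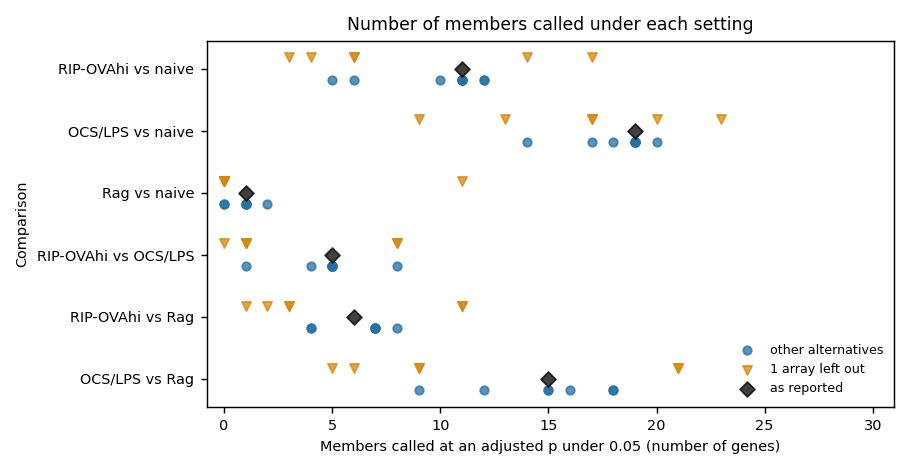
Number of members called at an adjusted p under 0.05 (x axis) in each comparison (rows), as reported (diamonds), with 1 array left out (triangles) and under the other alternatives (circles). OCS/LPS against naive runs from 9 to 23 called members and Rag against naive from 0 to 11.

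Among the receptor chains, the factors and the feedback gene, the receptor chain Ifnar2 rose and the negative regulator Usp18 fell against naive cells in both RIP-OVAhi and OCS/LPS. Usp18 encodes the protease that removes Isg15 from proteins and also blocks signalling at Ifnar2. Its levels were 7.47 and 7.70 in RIP-OVAhi cells, 6.77 and 6.73 in OCS/LPS, 8.29 in Rag and 8.10 and 7.98 in naive cells (log2 GCRMA, as are all levels here; all differences are log2 too), so that no arrays of different groups overlapped. The difference from naive was -0.46 ± 0.13 for RIP-OVAhi (SE; adjusted p = 0.0484) and -1.29 ± 0.13 for OCS/LPS (adjusted p = 0.00138), and 0.25 for Rag (adjusted p = 0.476). Usp18 was 1.78-fold higher in RIP-OVAhi than in OCS/LPS (0.83 ± 0.13, adjusted p = 0.0361). Against Rag the difference was -0.71 ± 0.16 in RIP-OVAhi (adjusted p = 0.0364) and -1.54 ± 0.16 in OCS/LPS (adjusted p = 0.00329). The OCS/LPS calls against naive and against Rag held under every alternative tried. The RIP-OVAhi call against naive was lost in 10 of 15 (adjusted p 0.0361 to 0.244 over the 15), and that against OCS/LPS in 6 of 15, among them the leaving out of any RIP-OVAhi or OCS/LPS array (adjusted p up to 0.291). The RIP-OVAhi call against Rag was lost in 6 of 13, without any one of the same arrays among them (adjusted p up to 0.161). With the replicate number as a block all 3 RIP-OVAhi calls were lost (adjusted p = 0.0769 against naive, 0.0626 against OCS/LPS and 0.0738 against Rag).

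Irf7, the factor that amplifies type I interferon production, read 8.01 and 8.23 in RIP-OVAhi cells, 7.21 and 7.23 in OCS/LPS, 8.51 in Rag and 8.63 and 8.25 in naive cells. Both OCS/LPS arrays lay below all others, and RIP-OVAhi lay just below naive. It fell by 1.22 ± 0.17 in OCS/LPS against naive (adjusted p = 0.00409) and fell by 1.29 ± 0.21 against Rag (adjusted p = 0.0125). The call against Rag was lost without either OCS/LPS array (adjusted p up to 0.0841). RIP-OVAhi against naive gave -0.32 (adjusted p = 0.204, and 0.0391 without the second naive array), and RIP-OVAhi against Rag gave -0.39 (adjusted p = 0.259). RIP-OVAhi against OCS/LPS gave 0.90 (adjusted p = 0.0592). That difference was called (lowest adjusted p = 0.0276) in the fit of only those 2 groups or without either naive array. Rag against naive gave 0.07 (adjusted p = 0.898).

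Ifnar2 was higher in both antigen groups than in naive cells. It read 9.03 and 9.14 in RIP-OVAhi cells, 9.28 and 9.20 in OCS/LPS, 8.93 in Rag and 8.35 and 8.13 in naive cells, with the naive arrays below all others. The difference from naive was 0.85 ± 0.13 in RIP-OVAhi (adjusted p = 0.00679), 1.0 ± 0.13 in OCS/LPS (adjusted p = 0.00363) and 0.69 in Rag (adjusted p = 0.105). The RIP-OVAhi call was lost without either RIP-OVAhi array (adjusted p up to 0.0686), and the Rag difference was called without the first naive array (adjusted p = 0.0262). RIP-OVAhi and OCS/LPS differed by -0.15 (adjusted p = 0.66), RIP-OVAhi and Rag by 0.16 (adjusted p = 0.572), and OCS/LPS and Rag by 0.31 (adjusted p = 0.247). Another 2 probe sets of Ifnar2 gave 0.74 and 0.89 for RIP-OVAhi and 0.82 and 0.86 for OCS/LPS against naive.

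Ifnar1, the other receptor chain, had no call in the reported fit. Its levels were 8.26 and 7.86 in RIP-OVAhi cells, 8.15 and 7.93 in OCS/LPS, 8.42 in Rag and 8.11 and 7.32 in naive cells. The groups overlapped, apart from Rag. Its other probe set gave -0.78 for RIP-OVAhi and -0.93 for OCS/LPS against naive, where the reported one gave 0.35 (adjusted p = 0.408) and 0.33 (adjusted p = 0.417), so its direction depends on the probe set. Rag against naive gave 0.71 (adjusted p = 0.361, and 0.0454 without the first naive array). RIP-OVAhi and OCS/LPS differed by 0.02 (adjusted p = 0.986), and against Rag they gave -0.36 (adjusted p = 0.55) and -0.38 (adjusted p = 0.503). The last was called when all probe sets of the gene were averaged (adjusted p = 0.0477).

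Irf9, the DNA-binding partner of Stat2, had no call in any comparison. It read 9.92 and 9.97 in RIP-OVAhi cells, 9.71 and 9.39 in OCS/LPS, 9.65 in Rag and 9.98 and 9.83 in naive cells. OCS/LPS lay below naive, with a difference of -0.35 (adjusted p = 0.125), and RIP-OVAhi above OCS/LPS, by 0.40 (adjusted p = 0.269). RIP-OVAhi and Rag gave 0.04 (adjusted p = 0.857) and -0.26 (adjusted p = 0.522) against naive, RIP-OVAhi against Rag gave 0.30 (adjusted p = 0.329), and OCS/LPS against Rag gave -0.10 (adjusted p = 0.768). Stat2 lay between 2.81 and 3.28 on all arrays, near the array medians, which does not show whether the gene is expressed.

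The cytosolic sensors showed no call. These are Ifih1 (MDA5) and Ddx58 (RIG-I), which detect viral RNA, Dhx58 (LGP2), which modulates them, and Zbp1, a sensor of Z-form nucleic acids. The 4 differences lay between -0.58 and 0.81 for RIP-OVAhi, between -0.78 and 0.03 for OCS/LPS and between -0.38 and 0.35 for Rag against naive cells. Ifih1 levels were 8.90 and 9.22 in RIP-OVAhi cells, 8.71 and 8.79 in OCS/LPS, 9.18 in Rag and 9.51 and 9.06 in naive cells, with OCS/LPS lowest. Dhx58 read 6.97 and 7.38 in RIP-OVAhi cells, 6.17 and 6.62 in OCS/LPS, 6.72 in Rag and 6.72 and 6.02 in naive cells. RIP-OVAhi was highest for Dhx58, by 0.81 over naive (adjusted p = 0.0864). Zbp1 read 6.50 and 6.94 in RIP-OVAhi cells, 6.74 and 6.29 in OCS/LPS, 6.92 in Rag and 6.58 and 8.02 in naive cells, which were the furthest apart. Probe sets disagreed for both Zbp1 (0.62 against -0.58 for RIP-OVAhi minus naive) and Ddx58 (-0.75 against 0.03).

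Oas2 and Oas3, enzymes of the OAS family, sense double-stranded RNA and feed RNase L. Oasl2 is an OAS-like protein with a ubiquitin-like tail. It read 4.94 and 5.30 in RIP-OVAhi cells, 2.86 and 2.85 in OCS/LPS, 7.46 in Rag and 7.27 and 7.25 in naive cells. Both OCS/LPS values were below the array medians, and RIP-OVAhi lay between them and naive. Oasl2 passed the filter only through RIP-OVAhi, Rag and naive arrays, so its OCS/LPS differences lie partly below 5. The difference from naive was -2.14 ± 0.15 in RIP-OVAhi (adjusted p = 0.000372) and -4.41 ± 0.15 in OCS/LPS (adjusted p = 2.63e-05). With every value under 5 set to 5, the OCS/LPS difference was -2.26 (4.79-fold lower, adjusted p = 0.000214), smaller than the falls of Ifit1 (-2.91 on the same scale), Rsad2 and Ifit3 given below. Against Rag it was -2.34 ± 0.19 in RIP-OVAhi (adjusted p = 0.00125) and -4.60 ± 0.19 in OCS/LPS (adjusted p = 0.000211), the last being -2.46 (5.49-fold lower, adjusted p = 0.000712) with values under 5 set to 5. These 4 calls held under every alternative. Rag against naive gave 0.20, with an adjusted p of 0.636.

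Oasl2 was also 2.26 ± 0.15 higher in RIP-OVAhi than in OCS/LPS (adjusted p = 0.00216). This difference lies largely below a level of 5: with values under 5 set to 5 it was 0.15 (adjusted p = 0.665), and it was also not called without the second OCS/LPS array. Oas2, an enzyme that makes 2′-5′ oligoadenylates, read 5.19 and 6.00 in RIP-OVAhi cells, 5.04 and 4.78 in OCS/LPS, 6.91 in Rag and 6.91 and 6.69 in naive cells. Both antigen groups lay below naive and Rag. It fell by 1.21 ± 0.28 in RIP-OVAhi (adjusted p = 0.0233) and fell by 1.89 ± 0.28 in OCS/LPS (adjusted p = 0.00482) against naive. Against Rag, OCS/LPS gave -2.00 ± 0.34 (adjusted p = 0.0148) and RIP-OVAhi -1.31 (adjusted p = 0.0502). Without the filter on low values, RIP-OVAhi against naive (adjusted p = 0.118) and OCS/LPS against Rag (adjusted p = 0.0803) were not called. In the fit of only RIP-OVAhi and naive arrays their difference was not called either (adjusted p = 0.0616). The RIP-OVAhi call was lost without the first RIP-OVAhi array, the first naive array or either OCS/LPS array (adjusted p 0.0616 to 0.0855), the OCS/LPS call against naive without the second OCS/LPS array (adjusted p = 0.0541), and that against Rag without either OCS/LPS array (adjusted p up to 0.0991).

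Oas3, a larger enzyme of the same family, moved the other way. It read 6.92 and 7.02 in RIP-OVAhi cells, 6.82 and 7.09 in OCS/LPS, 7.45 in Rag and 6.43 and 6.51 in naive cells, the naive arrays being lowest. The rise over naive was 0.50 ± 0.14 in RIP-OVAhi (adjusted p = 0.0429), 0.48 ± 0.14 in OCS/LPS (adjusted p = 0.0442) and 0.98 ± 0.17 in Rag (adjusted p = 0.0476). Each was near the threshold: the first 2 were lost in 8 of 15 alternatives (adjusted p up to 0.221) and the Rag one in 9 of 13 (adjusted p up to 0.164), mostly by the leaving out of 1 array; with the replicate block the Rag rise had an adjusted p of 0.0546. Oasl1, not tested, read 3.69 and 3.61 in RIP-OVAhi cells, 3.48 and 3.62 in OCS/LPS, 4.68 in Rag and 4.69 and 4.16 in naive cells.

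**Figure D4:**
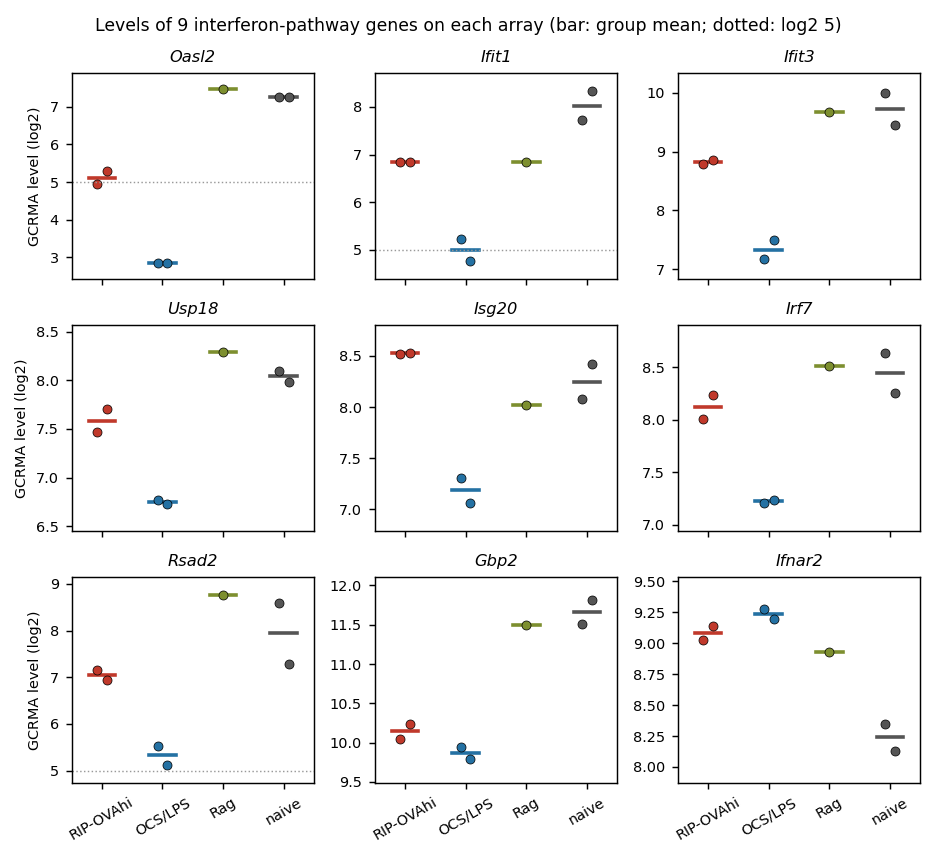
GCRMA level (log2, y axis) of 9 interferon-pathway genes on each array by group (x axis), with a bar at the group mean and a dotted line at 5. OCS/LPS arrays are lowest for Oasl2, Ifit1, Ifit3, Usp18, Isg20, Irf7, Rsad2 and Gbp2, and naive arrays are lowest for Ifnar2.

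Of the 13 tested IFIT, Mx and other antiviral effectors, 2 fell in RIP-OVAhi and 7 in OCS/LPS against naive cells, where 11.6% and 12.3% of all tested genes fell, and none rose in either. The 2 of 13 in RIP-OVAhi are near that share. Ifit1, which binds viral RNA lacking a host cap, read 6.85 and 6.85 in RIP-OVAhi cells, 5.22 and 4.76 in OCS/LPS, 6.85 in Rag and 7.72 and 8.33 in naive cells. The files hold the same value for both RIP-OVAhi arrays and the Rag array, so the RIP-OVAhi spread is 0 and its error comes from the other groups. Ifit1 fell by 1.17 ± 0.25 in RIP-OVAhi (adjusted p = 0.018) and fell by 3.03 ± 0.25 in OCS/LPS (8.18-fold, adjusted p = 0.000541) against naive. It was 1.86 ± 0.25 higher in RIP-OVAhi than in OCS/LPS (adjusted p = 0.0211) and OCS/LPS against Rag gave -1.86 ± 0.30 (adjusted p = 0.0128). The call against naive was lost for RIP-OVAhi without either RIP-OVAhi array (adjusted p up to 0.117), and held for OCS/LPS under every alternative. The call against OCS/LPS was lost without any one of the RIP-OVAhi or OCS/LPS arrays (adjusted p up to 0.215), and that of OCS/LPS against Rag without either RIP-OVAhi array or the second OCS/LPS array (adjusted p up to 0.082).

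Ifit3, a partner of Ifit1 in the same complex, was also lowest in OCS/LPS. It read 8.78 and 8.85 in RIP-OVAhi cells, 7.17 and 7.49 in OCS/LPS, 9.67 in Rag and 9.99 and 9.45 in naive cells, so RIP-OVAhi lay between OCS/LPS and the other groups. The difference from naive was -0.90 ± 0.21 in RIP-OVAhi (adjusted p = 0.0256) and -2.39 ± 0.21 in OCS/LPS (adjusted p = 0.000771). RIP-OVAhi stood 1.49 ± 0.21 above OCS/LPS (adjusted p = 0.0267), and OCS/LPS against Rag gave -2.34 ± 0.26 (adjusted p = 0.00382). Both OCS/LPS falls held under every alternative. The other 2 calls were lost without any one of the RIP-OVAhi or OCS/LPS arrays (adjusted p up to 0.146 against naive and 0.25 against OCS/LPS). Ifit2, another IFIT protein, gave 9.75 and 9.86 in RIP-OVAhi cells, 9.53 and 9.73 in OCS/LPS, 10.45 in Rag and 9.96 and 9.61 in naive cells. Its one call was a fall in OCS/LPS against Rag (-0.82 ± 0.20, adjusted p = 0.0412). IFIT genes have close copies in the mouse genome, and their probe sets may read more than one of them.

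Rsad2 (viperin), an enzyme that makes a chain-terminating nucleotide, was among the largest falls in OCS/LPS. It read 7.15 and 6.93 in RIP-OVAhi cells, 5.53 and 5.12 in OCS/LPS, 8.77 in Rag and 8.60 and 7.29 in naive cells. The naive arrays were far apart, yet both OCS/LPS arrays lay below every other. The fall was -2.62 ± 0.42 against naive (adjusted p = 0.00648) and -3.45 ± 0.51 against Rag (adjusted p = 0.00984). A second Rsad2 probe set, below 5 in OCS/LPS, gave -1.89 and -2.61, and with the mean of the gene's probe sets the falls were -1.53 and -2.20, both still called. The call was lost without the second OCS/LPS array against naive (adjusted p = 0.066) and without either OCS/LPS array against Rag (adjusted p up to 0.0797). RIP-OVAhi gave 1.72 against OCS/LPS (adjusted p = 0.117) and -0.90 against naive (adjusted p = 0.16), neither called.

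Isg20, an RNA exonuclease, was lowest in OCS/LPS. It read 8.52 and 8.53 in RIP-OVAhi cells, 7.31 and 7.06 in OCS/LPS, 8.02 in Rag and 8.08 and 8.42 in naive cells, and RIP-OVAhi lay above every other array. It was 1.34 ± 0.16 higher in RIP-OVAhi than in OCS/LPS (2.54-fold, adjusted p = 0.0167). The call was lost without any one of the RIP-OVAhi or OCS/LPS arrays (adjusted p up to 0.205). Against naive, RIP-OVAhi gave 0.28 (adjusted p = 0.252) and OCS/LPS fell by 1.06 ± 0.16 (adjusted p = 0.00587).

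Bst2 (tetherin), which holds virus particles on the cell surface, read 7.54 and 8.15 in RIP-OVAhi cells, 6.95 and 7.51 in OCS/LPS, 8.24 in Rag and 8.50 and 9.09 in naive cells. It fell by 1.56 ± 0.31 in OCS/LPS against naive (adjusted p = 0.0139), a call lost without either OCS/LPS array (adjusted p up to 0.0948). RIP-OVAhi gave -0.95 (adjusted p = 0.0704). Rtp4, a transmembrane transporter protein induced by interferon, read 9.43 and 9.72 in RIP-OVAhi cells, 8.77 and 8.61 in OCS/LPS, 9.84 in Rag and 9.74 and 10.33 in naive cells. The OCS/LPS arrays were the lowest, with a difference of -1.35 ± 0.22 against naive (adjusted p = 0.00749), again lost without either OCS/LPS array (adjusted p up to 0.0696). Ifi35, a protein that interferon induces, fell by 0.82 in OCS/LPS against naive (adjusted p = 0.00996).

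The other effectors had no call in any comparison. Mx1, a dynamin-like GTPase that blocks influenza virus and is defective in many laboratory strains, read 7.04 and 6.93 in RIP-OVAhi cells, 6.75 and 6.61 in OCS/LPS, 7.55 in Rag and 6.98 and 5.66 in naive cells, with the naive arrays furthest apart. Adar, the RNA-editing deaminase, read 8.74 and 8.59 in RIP-OVAhi cells, 8.23 and 8.50 in OCS/LPS, 9.11 in Rag and 9.50 and 8.37 in naive cells, again widest in the last. Against naive this probe set gave -0.27 in RIP-OVAhi and -0.57 in OCS/LPS. Its other probe sets gave 0.24 and 0.57 in RIP-OVAhi and 0.07 and 0.11 in OCS/LPS, so the direction for Adar depends on the probe set. Their naive arrays lay closer together (8.40 and 8.28, 7.88 and 7.50). Eif2ak2 (the kinase PKR), Samd9l and Xaf1 differed by between -0.30 and 0.06 from naive in RIP-OVAhi and OCS/LPS. Mx2 lay between 2.17 and 2.22 on all arrays and Ifitm3, a membrane protein that blocks virus entry, between 2.83 and 4.04.

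Of the 6 tested ubiquitin and ADP-ribose ligases, 1 was called, in 1 comparison. That call was a fall in OCS/LPS against naive cells, where 12.3% of all tested genes fell, so the count is near that share. Trim30a, a TRIM protein that restrains innate signalling in mouse cells, read 11.04 and 11.15 in RIP-OVAhi cells, 10.76 and 10.62 in OCS/LPS, 11.42 in Rag and 11.57 and 11.15 in naive cells. It fell by 0.67 in OCS/LPS against naive (adjusted p = 0.0304). Its other probe set gave a smaller difference from naive, -0.22 in OCS/LPS, and 0.16 in RIP-OVAhi where the reported one gave -0.27. Herc6, the ligase that attaches Isg15 in mouse cells, read 9.33 and 9.66 in RIP-OVAhi cells, 8.75 and 8.74 in OCS/LPS, 9.09 in Rag and 9.32 and 8.89 in naive cells. RIP-OVAhi stood 0.75 above OCS/LPS (adjusted p = 0.134). Trim25, Dtx3l, Parp9 and Parp14 were not called, with OCS/LPS differences from naive between -0.23 and 0.02. Their other probe sets gave 0.09 and 0.90 for Trim25, -0.61 for Parp14 and -0.03 for Dtx3l, so those of Trim25 and Parp14 disagreed. Dtx3l and Parp9 form a complex that modifies histones.

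Of the 7 genes of the GTPases that interferon gamma induces, Tap1 included, 4 fell in RIP-OVAhi and 5 in OCS/LPS against naive cells, where 11.6% and 12.3% of all tested genes fell. None was called between RIP-OVAhi and OCS/LPS, where 1.61% of all genes were higher and 1.3% lower and the 7 differences lay between -0.09 and 0.52. Gbp2, a guanylate-binding protein that acts on pathogen vacuoles, read 10.05 and 10.24 in RIP-OVAhi cells, 9.95 and 9.79 in OCS/LPS, 11.50 in Rag and 11.51 and 11.81 in naive cells. Both antigen groups lay more than 1 log2 unit below Rag and naive. Gbp2 fell by 1.52 ± 0.16 in RIP-OVAhi (adjusted p = 0.00165) and fell by 1.79 ± 0.16 in OCS/LPS (adjusted p = 0.000716) against naive, both under every alternative. Against Rag the falls were -1.36 ± 0.19 (adjusted p = 0.00828) in RIP-OVAhi and -1.63 ± 0.19 (adjusted p = 0.00456) in OCS/LPS, of which that in RIP-OVAhi was lost without either RIP-OVAhi array (adjusted p up to 0.0671). A second Gbp2 probe set gave -1.32 and -1.55 against naive.

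Irgm1, which regulates the other immunity-related GTPases, read 9.16 and 9.34 in RIP-OVAhi cells, 9.03 and 8.99 in OCS/LPS, 9.57 in Rag and 10.34 and 10.33 in naive cells. It fell by 1.08 ± 0.12 in RIP-OVAhi (adjusted p = 0.00218) and fell by 1.33 ± 0.12 in OCS/LPS (adjusted p = 0.000839) against naive, both under every alternative. Here Rag also lay below naive, with a difference of -0.76 (adjusted p = 0.0635). Igtp (Irgm3), a regulator of the same class, read 11.37 and 11.37 in RIP-OVAhi cells, 11.04 and 10.65 in OCS/LPS, 12.41 in Rag and 12.13 and 11.90 in naive cells. It fell by 0.65 ± 0.17 in RIP-OVAhi (adjusted p = 0.035) and fell by 1.17 ± 0.17 in OCS/LPS (adjusted p = 0.00474). The RIP-OVAhi call was lost without either RIP-OVAhi array or the first naive array (adjusted p up to 0.168).

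Irgm2 read 9.66 and 9.33 in RIP-OVAhi cells, 9.26 and 9.03 in OCS/LPS, 10.75 in Rag and 10.59 and 10.08 in naive cells. It fell by 0.84 ± 0.22 in RIP-OVAhi (adjusted p = 0.0344), lost in 7 of 15 alternatives with adjusted p up to 0.204, and fell by 1.19 ± 0.22 in OCS/LPS (adjusted p = 0.0104). Against Rag, Igtp fell by 1.04 ± 0.21 in RIP-OVAhi (adjusted p = 0.024) and fell by 1.57 ± 0.21 in OCS/LPS (adjusted p = 0.00687). Irgm2 fell by 1.26 ± 0.27 in RIP-OVAhi against Rag (adjusted p = 0.0291) and fell by 1.61 ± 0.27 in OCS/LPS (adjusted p = 0.0137). Without either RIP-OVAhi array neither RIP-OVAhi fall was called (adjusted p up to 0.132 for Igtp and 0.156 for Irgm2), and without either OCS/LPS array Irgm2 was not called in OCS/LPS (adjusted p up to 0.0931). Gbp3, another guanylate-binding protein, read 8.93 and 9.03 in RIP-OVAhi cells, 9.01 and 9.13 in OCS/LPS, 9.80 in Rag and 9.31 and 9.12 in naive cells. It was lower than Rag in RIP-OVAhi (-0.81 ± 0.16, adjusted p = 0.0231, up to 0.127 without any one of the RIP-OVAhi or OCS/LPS arrays and 0.0515 with the replicate block) and did not pass the test against naive in any group. Ifi47, a related GTPase, fell by 0.70 in OCS/LPS against naive (adjusted p = 0.00774). Tap1, the peptide transporter of antigen presentation, was not called, with 9.85 and 9.89 in RIP-OVAhi cells, 9.65 and 9.63 in OCS/LPS, 10.02 in Rag and 9.89 and 9.39 in naive cells.

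**Figure D5:**
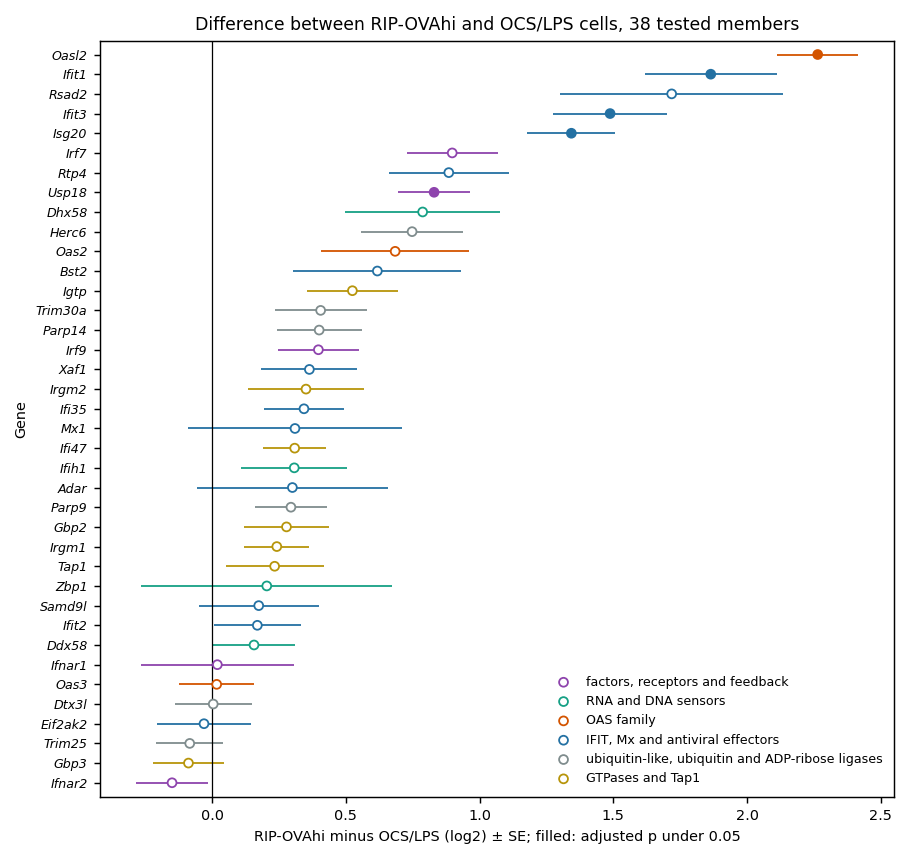
Difference between RIP-OVAhi and OCS/LPS group means in log2 units (x axis) for the 38 tested members (rows), with bars of 1 standard error and filled points for an adjusted p under 0.05. The filled points are Oasl2, Ifit1, Isg20, Ifit3 and Usp18, and 34 of the 38 differences are above 0.

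Between the tolerance and priming groups the 5 calls were an OAS-like protein, 3 antiviral effectors and Usp18. The OAS-like one, Oasl2, lay below 5 on both OCS/LPS arrays. With values under 5 set to 5 its difference was 0.15 (limma, adjusted p = 0.665) and not called. By the group mean 34 of the 38 members were higher in RIP-OVAhi and 4 lower, against 58.1% of all tested genes with a lower RIP-OVAhi mean. On both RIP-OVAhi arrays 30 members lay above both OCS/LPS arrays and 1 lay below, where 23.5% of all genes lay above and 34% below. In OCS/LPS against Rag, Rtp4, Isg20, Ifit2, Ifi47 and Gbp3 were also called, with differences between -1.15 and -0.72. Those 5 lie outside the 10 largest falls and are named after their values were seen.

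Of 14 tested signalling genes out of 18 listed, 2 rose and 3 fell in RIP-OVAhi and 1 rose and 3 fell in OCS/LPS against naive cells. Over all tested genes 18.1% rose and 11.6% fell in RIP-OVAhi and 20.5% rose and 12.3% fell in OCS/LPS. Irf8, a factor that activated T cells also express, rose against naive cells by 3.43 in RIP-OVAhi (adjusted p = 0.000192), 2.10 in OCS/LPS (adjusted p = 0.00107) and 1.62 in Rag (adjusted p = 0.0327). Irf1, a factor that both interferon types induce, fell by 0.58 in RIP-OVAhi (adjusted p = 0.0307) and fell by 0.63 in OCS/LPS (adjusted p = 0.0219), and Rag gave 0.13 (adjusted p = 0.741). Socs3, an inhibitor of cytokine receptor signalling, read 5.56 and 6.92 in RIP-OVAhi cells, 7.80 and 7.82 in OCS/LPS, 11.25 in Rag and 10.42 and 10.15 in naive cells. Its fall was -4.05 in RIP-OVAhi (adjusted p = 0.00158) and -2.48 in OCS/LPS (adjusted p = 0.00773). Socs1, the main inhibitor of interferon gamma signalling, lay between 1.59 and 1.61 on every array. A probe set so near background does not show whether the gene is expressed.

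Of the interferon genes, Ifng alone was tested. It read 6.80 and 7.73 in RIP-OVAhi cells, 7.81 and 7.43 in OCS/LPS, 4.25 in Rag and 2.79 and 3.66 in naive cells, high in both antigen groups. Since the Rag and naive values all lie below 5, Ifng passed the filter only through the groups where it is high. The fitted difference from naive was 4.04 in RIP-OVAhi (adjusted p = 0.00136) and 4.40 in OCS/LPS (adjusted p = 0.000812). With values under 5 set to 5, an alternative added after the data were seen, it was 2.26 (adjusted p = 0.00494) and 2.62 (adjusted p = 0.00264). RIP-OVAhi and OCS/LPS differed by -0.36 (adjusted p = 0.744). Ifnb1 and the 5 Ifna genes measured lay between 2.07 and 4.44 on all arrays. Of 28 tested other type I response genes out of 41 listed, 5 rose and 4 fell in RIP-OVAhi and 2 rose and 6 fell in OCS/LPS against naive cells, with medians of 0.07 and -0.23, against 0.06 and 0.08 over all genes. The RIP-OVAhi counts are near the shares over all genes (18.1% rose and 11.6% fell), and in OCS/LPS 20.5% of all genes rose and 12.3% fell. Cd69, an activation marker that type I interferon also induces, fell by 1.27 (adjusted p = 0.00232) in RIP-OVAhi and fell by 1.39 (adjusted p = 0.00141) in OCS/LPS. Parp12, an ADP-ribosyltransferase, fell by 1.56 in RIP-OVAhi (adjusted p = 0.0144) and fell by 1.21 in OCS/LPS (adjusted p = 0.0289). Ifi27l2a rose in RIP-OVAhi by 1.22 (adjusted p = 0.0217). Parp11 was 1.25 higher in RIP-OVAhi than in OCS/LPS (adjusted p = 0.0195), as was Slfn8, by 0.73 (adjusted p = 0.0481).

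Of 17 tested interferon gamma GTPases and antigen presentation genes out of 27 listed, 1 rose and 3 fell in RIP-OVAhi and 2 rose and 4 fell in OCS/LPS, with none called in Rag against naive cells (limma). Of all genes, RIP-OVAhi had 18.1% higher and 11.6% lower, and OCS/LPS had 20.5% higher and 12.3% lower. Gbp7 fell by 1.43 in RIP-OVAhi (adjusted p = 0.00356) and fell by 1.62 in OCS/LPS (adjusted p = 0.00199). Gbp6 fell by 1.39 in OCS/LPS (adjusted p = 0.00598), and stood 1.31 higher in RIP-OVAhi than in OCS/LPS (adjusted p = 0.0397). Gbp8 fell by 0.70 in RIP-OVAhi (adjusted p = 0.0373) and fell by 1.19 in OCS/LPS (adjusted p = 0.0062). In RIP-OVAhi the chemokine Cxcl10 fell by 0.75 (adjusted p = 0.0333), but by the added setting of values under 5 to 5 the difference was -0.43 (adjusted p = 0.15). Psmb9, a subunit of the immunoproteasome, rose by 0.63 in RIP-OVAhi (adjusted p = 0.0119). In OCS/LPS the GTPase Iigp1 fell by 1.92 (adjusted p = 0.0242). Of 7 tested sensing genes out of 15 listed, 2 rose in RIP-OVAhi, and 1 rose and 1 fell in OCS/LPS. Those higher in RIP-OVAhi were Sting1, the adaptor of cytosolic DNA sensing, by 0.77 (adjusted p = 0.0226), and the DNA sensor Aim2, by 0.59 (adjusted p = 0.0222).

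Markers of other cell types differed between the groups. The summed linear level of 12 myeloid and dendritic cell markers was 95 to 109 in RIP-OVAhi, 341 to 484 in OCS/LPS, 1050 in Rag and 365 to 568 in naive cells, with 0, 3, 5 and 2 to 3 of them at 5 or above. Csf1r read 8.51 in Rag and 2.44 to 2.56 on every other array, while Cd14, Itgam and Fcgr1 stayed at or below 2.50 throughout. The 5 MHC class II genes summed to 415 to 417 in RIP-OVAhi, 375 to 499 in OCS/LPS, 781 in Rag and 444 to 582 in naive cells. Most of the RIP-OVAhi sum was H2-DMa (8.49 and 8.53), and the other 4 genes lay below 5 on both RIP-OVAhi arrays. H2-Aa read 1.77 and 2.74 in RIP-OVAhi cells, 6.50 and 6.99 in OCS/LPS, 7.63 in Rag and 6.50 and 6.69 in naive cells. Of the 5 genes, 3 (H2-Aa, H2-Ab1 and H2-Eb1) were lower in RIP-OVAhi than in OCS/LPS and than in naive cells by the same test. Over all tested genes 1.3% and 11.6% were lower in these comparisons. The 3 genes passed the filter only through the other groups, so their differences lie partly below 5. In OCS/LPS against naive 1 was lower, H2-DMa, where 12.3% of all genes were lower. The 7 measured B and plasma cell markers summed to 4070 to 4210 in RIP-OVAhi, 7020 to 7330 in OCS/LPS, 3850 in Rag and 5200 to 5230 in naive cells, most of it Ighm (11.85 to 12.58). Ighm read 11.85 in Rag too, where hosts develop no B cells, so this sum cannot be read as an amount of B cells. Jchain read 1.65 and 2.28 in RIP-OVAhi cells, 8.01 and 8.45 in OCS/LPS, 1.65 in Rag and 7.07 and 6.93 in naive cells, and Cd22 read 6.53 and 7.03 in RIP-OVAhi cells, 8.2 and 8.55 in OCS/LPS, 4.28 in Rag and 4.04 and 3.59 in naive cells. Of the 6 tested, 3 (Cd22, Jchain and Ighm) were higher in OCS/LPS than in naive cells and lower in RIP-OVAhi than in OCS/LPS. Over all tested genes 20.5% were higher in the first comparison and 1.3% lower in the second. In RIP-OVAhi against naive Cd22 was higher, and Jchain and Igha lower, where 18.1% of all genes were higher and 11.6% lower. Cd22 lay below 5 on the Rag and naive arrays, so it passed the filter only through the groups where it is high. Jchain and Igha passed it only through OCS/LPS and naive arrays. Cd79a lay between 2.14 and 2.24 on all arrays. The 7-gene list of plasmacytoid dendritic cells, which make much type I interferon, held the member Bst2 and the T cell genes Ccr9 and Irf8. They summed to 1250 to 1260 in RIP-OVAhi, 453 to 584 in OCS/LPS, 631 in Rag and 1940 to 2270 in naive cells, with Siglech (2.01 to 2.05) and Ly6d (2.07 to 2.11) near background on every array. The part of such cells in the member levels was not tested.

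The 3 measured NK cell genes summed to 2020 to 2370 in RIP-OVAhi, 1150 to 1280 in OCS/LPS, 1360 in Rag and 1250 to 1290 in naive cells, most of it Eomes, which CD8 T cells also express, with Ncr1 at 2.26 to 2.31. The neutrophil list (6 measured) summed to 32.3 to 32.8 in RIP-OVAhi, 37.3 to 99.4 in OCS/LPS, 67.8 in Rag and 33 to 33.5 in naive cells. Erythroid and platelet genes (5 measured) summed to 27.7 on both RIP-OVAhi arrays, 35 to 58.1 in OCS/LPS, 127 in Rag and 87.4 to 103 in naive cells. Stromal (7 measured) and pancreas (5 measured) lists stayed between 57.9 and 82 and between 38.8 and 50 on all arrays.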

How the data were processed

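RNA levels of sorted OT-I cells were measured on 7 Affymetrix mouse arrays in 4 groups, from 100 ng of RNA that was amplified before labelling, per the labels' protocols. The deposited values of 45101 probe sets are on a log2 scale and were made by the authors with GCRMA, per the submitters' processing notes. Its version is not given in the sources. GCRMA corrects background, quantile-normalizes and summarises probes, so a shift shared by most genes is not visible. Levels of different probe sets are not compared, apart from the choice of 1 probe set per gene and the sums of marker genes. Those sums add linear levels of different probe sets, values near background included, and are a rough description only. The values were used as deposited. Probe sets were named from the platform annotation: 34958 had 1 gene symbol, 932 several and 9211 none, and 34754 of the 34958 matched RefSeq by Entrez ID, with 0 symbols changed. A single probe set stood for each gene (highest mean over the arrays).

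Differences were tested with limma 3.58.1 in R 4.3.3 (lmFit and eBayes, a mean per group, all 7 arrays, 3 residual degrees of freedom plus 2.93 from the prior), with Benjamini-Hochberg adjustment over 8203 genes with a log2 level of at least 5 on at least 2 arrays. The single Rag array was assumed to vary like the others. Precision is limited by the number of arrays. The labels do not say how the pools behind replicate arrays relate, so each p-value reflects the spread between these arrays alone. Tested on simulated data for OCS/LPS against naive (8203 genes, 200 changed, 10 draws), the fit recovered 82.6% of changes of 1 log2 unit and 99.4% of 2 units. False calls averaged 8.7 and 10.9 per draw. Each gene was drawn with the same spread in all groups, while the real naive arrays lay further apart than those of other groups. The real comparison also called 2698 genes, so these shares need not hold for it.

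Members, gene lists and tests were chosen with earlier results of these data known. Named in each comparison were the called members, up to 10 per direction by size, with Irf7, Irf9, Stat2, Ifnar1, Ifnar2, Isg15 and Usp18 in all; of the other pathway lists up to 4 called genes, with Irf1, Socs1 and Ifng (an item of this rule is not reported here); promoters of up to 6 called members. Cell type lists were OT-I CD8 T, myeloid and dendritic, MHC class II, plasmacytoid dendritic, B and plasma, neutrophil, NK, erythroid and platelet, stromal and pancreas. Alternatives changed the filter, the probe set rule, the centring, a floor, the variance model, the arrays fitted and a replicate block. The floor was applied to Ifng and Cxcl10 after the data were seen.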

Additional observations from a re-analysis of the deposited data

How the results depend on the processing

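Counts of called members depended on single arrays and on the filter. With 1 array left out they ran from 3 to 17 in RIP-OVAhi against naive (11 as reported), 9 to 23 in OCS/LPS against naive (19), 0 to 11 in Rag against naive (1), 0 to 8 in RIP-OVAhi against OCS/LPS (5), 1 to 11 in RIP-OVAhi against Rag (6) and 5 to 21 in OCS/LPS against Rag (15). Apart from Rag against naive, the lowest counts came without the first RIP-OVAhi array or the second OCS/LPS array, and the 11 of Rag against naive (9 higher, 2 lower) without the first naive array; without the second it was 0, with 8 at an unadjusted p under 0.05 (limma). Median member differences ran from -0.32 to -0.084, -0.65 to -0.33, 0.048 to 0.25, 0.26 to 0.38, -0.40 to -0.22 and -0.66 to -0.63 in the same order. Without the filter on low values the counts were 5 in RIP-OVAhi against naive, 1 in RIP-OVAhi against OCS/LPS and 9 in OCS/LPS against Rag. Calls lost there included Ifit1, Ifit3, Oas2, Igtp and Irgm2 in RIP-OVAhi against naive, and Rsad2 and Bst2 in OCS/LPS against naive. They also included Ifit1, Ifit3, Isg20 and Usp18 in RIP-OVAhi against OCS/LPS, Igtp and Irgm2 in RIP-OVAhi against Rag, and Rsad2, Oas2, Ifit1 and Irgm2 in OCS/LPS against Rag. With only the arrays of the groups compared they were 6 in RIP-OVAhi against naive and 8 in RIP-OVAhi against OCS/LPS. Rag against naive gave 2 with the mean of all probe sets and 0 with values under 5 set to 5 (7 at an unadjusted p under 0.05). The causes were not tested.

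Replicate numbers are shared in the labels, and with the replicate number as a block the counts were 11, 19, 0, 5, 4 and 12 in the same order (Rag against naive had 6 at an unadjusted p under 0.05). Deviations of same-numbered arrays correlated at 0.325 for RIP-OVAhi and OCS/LPS, 0.348 for RIP-OVAhi and naive and 0.132 for OCS/LPS and naive across genes, and over the 38 tested members alone at 0.295, 0.458 and -0.199.

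Of 947 alternative values of named members, 801 kept their direction and side of the threshold, 130 lost it, 7 gained it and 9 turned sign, none of these 9 called as reported. With the mean of its probe sets Ifnar1 against naive was -0.22 in RIP-OVAhi and -0.30 in OCS/LPS. The rest came with 1 array left out: Ifnar1 ran from -0.048 to 0.74 in RIP-OVAhi and from -0.067 to 0.72 in OCS/LPS against naive, and from -0.18 to 0.22 between RIP-OVAhi and OCS/LPS (-0.09 without the second OCS/LPS array). Irf9 ran from -0.031 to 0.12 in RIP-OVAhi against naive and from -0.26 to 0.063 in OCS/LPS against Rag, and Irf7 from -0.12 to 0.26 in Rag against naive.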
